A study of Mus musculus with 6 samples.

Results

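Mtdh, the mouse gene of AEG-1 (astrocyte elevated gene 1), and 6 genes whose proteins are reported to bind it were followed in hepatocytes of AEG-1 transgenic and wild-type mice. The 7 genes, Mtdh, Snd1, Zbtb16, Bccip, Crebbp, Ep300 and Yy1, were chosen for reported protein binding, by a rule that uses no array value but was written with earlier results of these data known. Their probe sets were selected by the platform annotation: every probe set whose only gene symbol was a member or an older synonym of one. This gave 17 of 22626 probe sets after control probe sets were set aside. Mtdh had 6, Yy1 had 4, Snd1 had 3, Zbtb16 had 2, and Bccip and Crebbp had 1 each. No probe set of Ep300 was found in the table used here (0), so 6 of the 7 genes were analysed.

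The arrays compared primary hepatocytes from Alb/AEG-1 mice, in which AEG-1 is overexpressed specifically in hepatocytes, with hepatocytes from wild-type mice, 3 Affymetrix arrays per genotype. Both groups had a mixed B6/CBA background, received no treatment, and were harvested 24 h after plating on collagen. The Alb in the line's name stands for albumin, a gene of hepatocytes. The labels give neither the species of the transgene sequence, nor the age of the mice, nor whether each array came from a separate animal, though the sample titles call the arrays biological replicates. The tests use the spread among these arrays. Values are log2 signals after RMA normalization. A probe set is a group of short probes against one transcript region, and levels of different probe sets cannot be set against each other.

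AEG-1 is a membrane-associated and nuclear protein without a known enzymatic domain that acts as a scaffold, and it is an oncogene in hepatocellular carcinoma. SND1, a staphylococcal nuclease domain protein, is found in the RNA-induced silencing complex and also acts in transcription. PLZF, the product of Zbtb16, is a zinc finger repressor, BCCIP binds BRCA2 and the cell cycle inhibitor p21, CBP (Crebbp) and p300 (Ep300) are histone acetyltransferases that coactivate many transcription factors, and YY1 is a zinc finger factor that can activate or repress.

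Among the 17 probe sets, 1 of Mtdh was higher and 1 of Yy1 was lower in transgenic hepatocytes, and 15 did not pass. The test was limma with Benjamini-Hochberg adjustment over all 22626 probe sets, at a threshold of 0.05, and it called 12.0% of all probe sets. In all, 1207 probe sets were higher in transgenic cells (5.33%) and 1508 were lower (6.66%). The members' 2 calls of 17 are near that background. Without transgenic replicate 1, 2 or 3, all calls numbered 1701, 1827 and 1715. Without wild-type replicate 1, 2 or 3, they numbered 2350, 1685 and 1706. Calls among the members numbered 1 or 2 in these fits. Groups did not overlap for 6 of the 17 member probe sets, against 31.3% of all probe sets. Of these 6, 2 were higher in transgenic cells, where 15.7% of all probe sets were, and 4 were lower, where 15.6% were.

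Among the Mtdh probe sets, the call was on 1455129_at. Its signal was 10.72, 10.40 and 10.81 in the 3 transgenic arrays, against 8.75, 8.78 and 8.64 in the 3 wild-type arrays. Every transgenic array lay well above every wild-type array. The difference was 1.92 (SE 0.11, 95% interval 1.68 to 2.17), or 3.79-fold, with a limma adjusted p of 2.12e-05. It had rank 12 among the 22626 probe sets ordered by increase.

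The other 5 Mtdh probe sets did not pass. Probe set 1455932_at gave 7.15, 7.18 and 7.005 in transgenic cells, against 6.84, 6.90 and 6.87 in wild-type cells. The groups did not overlap, and the difference of 0.24 (SE 0.07) had a limma adjusted p of 0.0510. It passed under 6 of 18 alternative settings, among them a fit restricted to probe sets with 1 symbol (limma adjusted p = 0.0495), a fit with a variance trend (limma adjusted p = 0.0300) and a fit without transgenic replicate 3 (limma adjusted p = 0.0406).

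None of the remaining Mtdh probe sets had a difference above 0.00 to 2 decimals. Probe set 1434884_at gave 7.12, 6.69 and 6.99 in transgenic arrays, against 7.21, 7.04 and 7.37 in wild-type arrays. These groups overlapped, and the difference was -0.27 (SE 0.12, limma adjusted p = 0.208). Probe set 1434883_at gave 7.20, 7.28 and 7.21 in transgenic arrays, against 7.30, 7.30 and 7.32 in wild-type arrays. Here the transgenic arrays were all lower, by a mean of only -0.08 (limma adjusted p = 0.456). Probe set 1434882_at averaged 7.92 ± 0.05 in transgenic and 7.92 ± 0.10 in wild-type cells (SD, n = 3 each), with a 95% interval of the difference from -0.16 to 0.16. Probe set 1421110_at averaged 3.45 ± 0.05 in transgenic and 3.61 ± 0.13 in wild-type cells (SD, n = 3 each) and lay under the array median on all 6 arrays, where signal is near background.

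**Figure D1:**
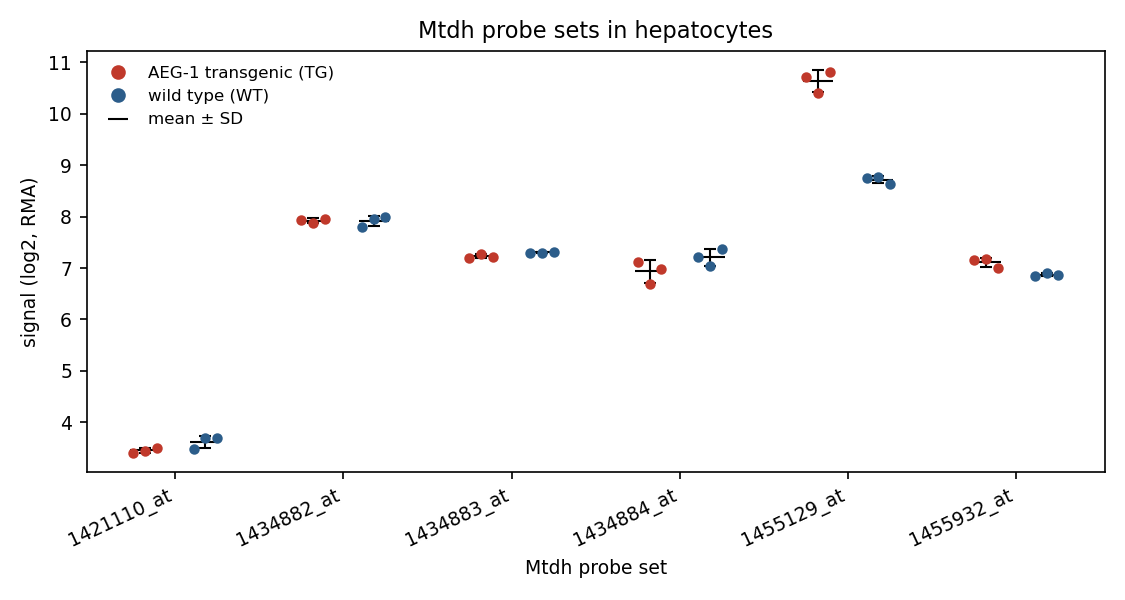
Signal (log2, RMA) of the 6 Mtdh probe sets in each array, with transgenic points in red on the left and wild-type points in blue on the right of each pair. Bars give the mean ± SD of 3 arrays. The transgenic arrays of 1455129_at lie between 10.40 and 10.81 and the wild-type arrays between 8.64 and 8.78, while the other probe sets differ by -0.27 to 0.24.

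The platform annotation gives 1455129_at the same source sequence entry as 3 other Mtdh probe sets, 1434882_at, 1434883_at and 1434884_at, whose differences were 0.00, -0.08 and -0.27. The probe sequences were not used here, so which part of the transcript each covers was not examined. Whether each probe set detects the transgene transcript was not examined either, so signal from the transgene and from endogenous Mtdh cannot be told apart, on 1455129_at or on the other 5 probe sets. The difference of 1455129_at exceeded the mean difference of the other 5 by 1.98, which describes the disagreement and is no separate evidence of it.

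Disagreement of this size between probe sets of one gene was rare on the array. The differences of the Mtdh probe sets spanned 2.20 log2 units, which ranked 4 among 4956 genes with at least 2 probe sets, where the median span was 0.15. Among the 72 genes with 6 probe sets, Mtdh had rank 1, against a median span of 0.28. A call on only 1 probe set was itself common, since 10 of the 17 genes with 6 probe sets and any call had 1 called probe set.

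Averaged over its 6 probe sets, Mtdh was at 7.22 ± 0.06 in transgenic and 6.94 ± 0.04 in wild-type cells (SD, n = 3 each). In a limma fit over 12393 genes, each as the mean of its probe sets, this difference of 0.28 had an adjusted p of 0.0116, where 15.9% of genes were called. It missed the threshold without transgenic replicate 1 (limma adjusted p = 0.0506). When the median of its probe sets was taken instead, the sign turned, at -0.09 (limma adjusted p = 0.452).

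Neither measured neighbour of Mtdh was called higher. The nearest measured genes in the order of the mouse reference gene table (GRCm38.p6) are Cpq, a plasma glutamate carboxypeptidase gene, and Laptm4b, a lysosomal membrane protein gene. Cpq averaged 9.65 ± 0.02 in transgenic and 9.76 ± 0.13 in wild-type cells, a difference of -0.11 (limma adjusted p = 0.444). Laptm4b averaged 9.17 ± 0.04 in transgenic and 9.36 ± 0.08 in wild-type cells, a difference of -0.20 (limma adjusted p = 0.0916; SD, n = 3 each for both genes).

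The 5 genes whose profile over the 6 arrays was nearest to that of 1455129_at were Tmsb10, Cxcl9, Ccl3, Serpina12 and Slc15a2. Nearness was the root mean square difference between profiles centred on their own means, each gene at its brightest probe set, and it ran from 0.12 to 0.17 log2 units over 12392 genes compared. Tmsb10 encodes an actin-binding thymosin, Cxcl9 and Ccl3 encode chemokines, Serpina12 encodes the serpin vaspin and Slc15a2 a peptide transporter. Serpina12 gave 10.94, 10.91 and 10.91 in transgenic arrays, against 9.12, 9.07 and 9.14 in wild-type arrays. Its groups lay far apart, by 1.80 (SE 0.06), and its other probe set rose too, by 0.48 (limma adjusted p = 0.0206). The dimmer Slc15a2 probe set did not pass, at 0.17 (limma adjusted p = 0.260). The 5 Tmsb10 probe sets ran from 0.09 to 1.96, and 3 of them were called higher. These genes were picked for a genotype difference like that of Mtdh, so their differences are a description.

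Snd1, the SND1 gene, showed no detectable difference. Its brightest probe set, 1416038_at, gave 8.89, 8.89 and 8.74 in transgenic arrays, against 8.91, 8.91 and 8.78 in wild-type arrays. The groups overlapped almost completely, and the 95% interval of the difference was -0.19 to 0.14 (limma adjusted p = 0.864). The other probe sets, 1437036_at and 1437037_x_at, lay under the array median on every array and differed by -0.07 and -0.05. The suffix of 1437037_x_at is the array design's mark for probes that may match several transcripts.

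Bccip showed no detectable difference either. Probe set 1448542_at gave 10.53, 10.54 and 10.52 in transgenic arrays, against 10.60, 10.52 and 10.56 in wild-type arrays. The groups overlapped, with a difference of -0.03 and a 95% interval from -0.16 to 0.10 (limma adjusted p = 0.797).

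Zbtb16, the PLZF gene, also did not pass, at low signal. Probe set 1427638_at gave 5.53, 5.37 and 5.33 in transgenic arrays, against 5.52, 5.35 and 5.15 in wild-type arrays, a difference of 0.07 (SE 0.10, limma adjusted p = 0.734). Probe set 1419874_x_at gave 5.37, 5.14 and 5.48 in transgenic arrays, against 5.43, 5.31 and 5.52 in wild-type arrays, a difference of -0.09 (SE 0.10, limma adjusted p = 0.634). The signs were opposite, the groups overlapped for both, and both probe sets lay under the array median on all 6 arrays.

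Crebbp, the CBP gene, was slightly lower in every transgenic array without passing. Probe set 1434633_at gave 5.23, 5.23 and 5.25 in transgenic arrays, against 5.51, 5.33 and 5.30 in wild-type arrays. The groups did not overlap, but the gap between them was narrow and the wild-type arrays were spread more widely than the transgenic ones. The difference was -0.14 (SE 0.07, limma adjusted p = 0.246), again at a level under the array median.

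Among the partners chosen as members, Yy1 was the only one with a call. Probe set 1422570_at gave 6.07, 6.22 and 6.11 in transgenic arrays, against 6.46, 6.39 and 6.40 in wild-type arrays. All transgenic arrays were lower, and the signal fell by 0.28 on the log2 scale (SE 0.06, limma adjusted p = 0.0265), which is 1.21-fold lower than in wild-type cells. Because a hepatocyte preparation is a bulk sample, fewer cells of a type and less RNA per cell cannot be told apart. The call was lost when any of 5 of the 6 arrays was left out (limma adjusted p from 0.0649 to 0.0992), and it held without transgenic replicate 2 (limma adjusted p = 0.0303). It was also lost without moderated variances (adjusted p = 0.0615 by an ordinary linear model).

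The other Yy1 probe sets did not pass. Probe set 1435824_at gave 7.73, 7.55 and 7.71 in transgenic arrays, against 7.75, 7.96 and 7.76 in wild-type arrays. These groups did not overlap either, with a difference of -0.17 (SE 0.08, limma adjusted p = 0.251). Probe set 1422569_at, which has the same source sequence entry as 1422570_at, differed by -0.11 (SE 0.07, limma adjusted p = 0.364), and 1457834_at, under the array median, by 0.03 (limma adjusted p = 0.834). Averaged over its 4 probe sets, Yy1 was at 6.79 ± 0.03 in transgenic and 6.92 ± 0.05 in wild-type cells (SD, n = 3 each), a difference of -0.13 (limma adjusted p = 0.136). With the median of its probe sets the difference was -0.22 and passed (limma adjusted p = 0.0284).

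**Figure D2:**
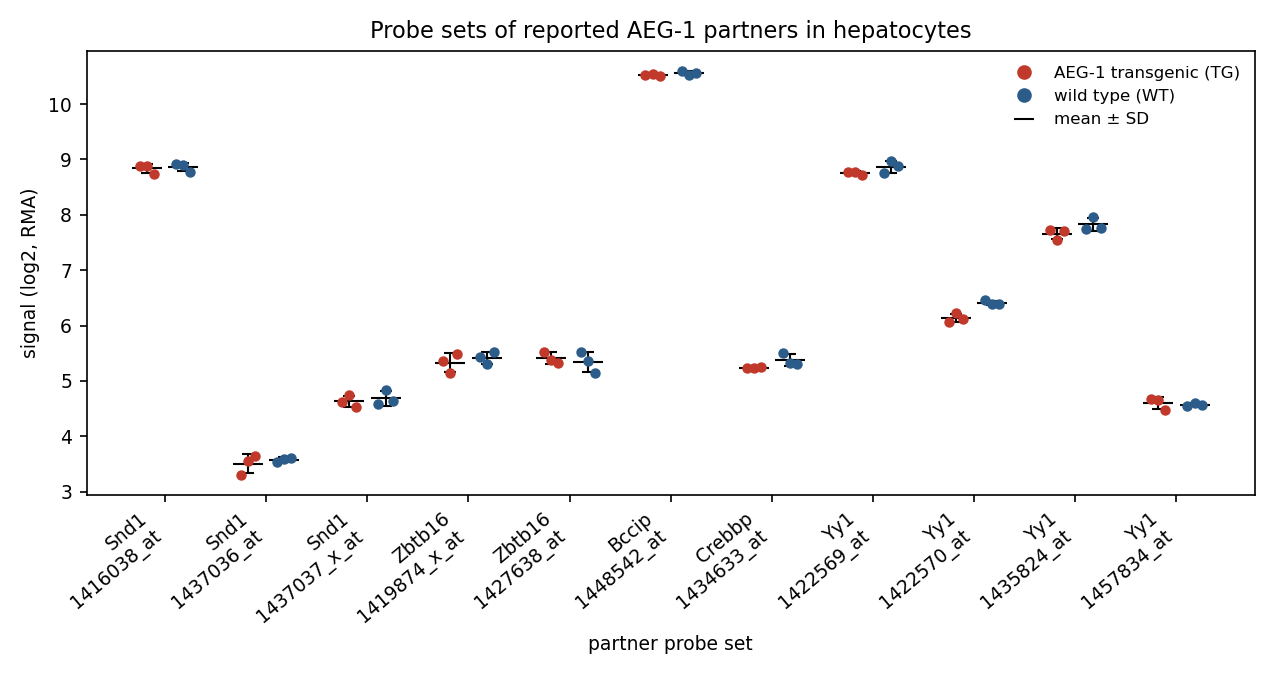
Signal (log2, RMA) of the 11 probe sets of Snd1, Zbtb16, Bccip, Crebbp and Yy1 in each array, with transgenic points in red on the left and wild-type points in blue on the right of each pair. Bars give the mean ± SD of 3 arrays. Only Yy1 1422570_at passed the test, at 6.07 to 6.22 in transgenic and 6.39 to 6.46 in wild-type arrays.

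Set side by side, the 11 partner probe sets differed by -0.28 to 0.07, with a median of -0.07, against a median of 0.01 over all probe sets. Differences were negative for 9 of the 11, and the share among all probe sets is not given here. Yy1 gave 4 of these 11 probe sets and Snd1 gave 3, so they do not stand for 11 separate genes. The partners' median absolute difference was 0.07, and that of all probe sets was 0.10. For the 10 partner probe sets that did not pass, the 95% intervals all held 0 and reached down to -0.36, for Yy1 1435824_at, and up to 0.30, for Zbtb16 1427638_at. These bounds correspond to signals 1.28-fold lower and 1.23-fold higher in transgenic cells. Larger changes in signal lay outside every one of these intervals, each taken alone. Several of these probe sets, Zbtb16 1427638_at among them, lay under the array median on every array, which limits what they can show. Replicates of the members were about as close as those of other probe sets, with median SDs of 0.09 in transgenic and 0.10 in wild-type cells, against 0.08 and 0.09 for all probe sets in the same order of genotypes.

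**Figure D3:**
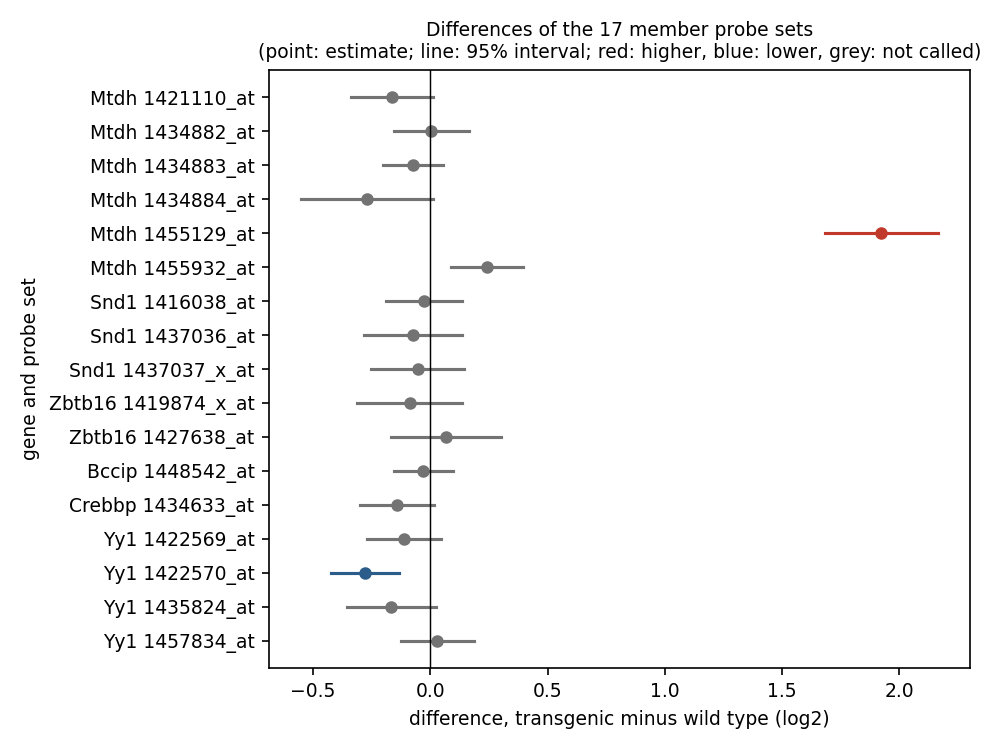
Difference of each of the 17 member probe sets, transgenic minus wild type (log2), with its 95% interval as a line. Red marks a probe set called higher, blue one called lower and grey those not called. Mtdh 1455129_at stands at 1.92, and the other 16 lie between -0.28 and 0.24.

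Genes that work with these proteins were listed by the partner they belong to, 80 genes in 7 lists, of which 62 had a probe set with 1 symbol. Each was taken at its brightest probe set. Of the 62, 5 were higher, 7 were lower and 50 did not pass, so 19.4% were called, against 13.8% of all 12393 genes so represented (5.83% higher and 7.96% lower). The median difference of all genes was 0.01. The 12 calls became 7, 9 and 6 without transgenic replicate 1, 2 or 3, and 11, 8 and 5 without wild-type replicate 1, 2 or 3. Rxra, Ncoa3, Bcl6 and Ccne1 kept their calls whichever array was left out.

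Other reported AEG-1 partners gave 1 fallen of 5 measured genes and 0 risen, with a median of -0.09. Among all genes 7.96% fell and 5.83% rose, and 5 genes are too few to tell from these shares. The fallen gene was Rxra, which encodes the retinoid X receptor alpha, a heterodimer partner of many nuclear receptors. It gave 8.39, 8.43 and 8.33 in transgenic arrays, against 8.78, 8.85 and 8.67 in wild-type arrays. The groups were clearly apart, and the difference was -0.38 (SE 0.07, limma adjusted p = 0.00843). The other Rxra probe set, 1425762_a_at, did not pass, at 0.06 (limma adjusted p = 0.541). Rela, which encodes the NF-kB subunit p65, differed by -0.09 (limma adjusted p = 0.496), and Ago2, Ikbkb and Prmt5 did not pass.

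In the RNA silencing list around SND1, 2 of 11 measured genes fell and 0 rose, with a median of 0.00. The shares of all genes were 7.96% lower and 5.83% higher. Prkra, which encodes the Dicer cofactor PACT, gave 7.49, 7.45 and 7.51 in transgenic arrays, against 7.76, 7.75 and 7.94 in wild-type arrays. The groups did not overlap, with a difference of -0.33 (SE 0.07, limma adjusted p = 0.0182). Tnrc6a, which encodes the Argonaute-binding protein GW182, fell by 0.23 at its brightest probe set (limma adjusted p = 0.0422), while its other 7 probe sets did not pass and ran from -0.22 to 0.26. Ago2, the slicing Argonaute, differed by 0.27 (limma adjusted p = 0.194) and Dicer1 by 0.10 (limma adjusted p = 0.491). The Prkra call was lost when any 1 transgenic array or wild-type replicate 3 was left out (limma adjusted p from 0.0520 to 0.0618), and that of Tnrc6a when any 1 of the 6 arrays was (limma adjusted p from 0.0566 to 0.128).

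Among acetyltransferases and coactivators other than CBP and p300, 2 of 13 measured genes rose and 2 fell, with a median of 0.01. Of all genes, 5.83% rose and 7.96% fell. Ncoa3, a steroid receptor coactivator gene, gave 6.18, 6.23 and 6.19 in transgenic arrays, against 5.94, 5.68 and 5.70 in wild-type arrays. All transgenic arrays were higher, by 0.43 on average (SE 0.08, limma adjusted p = 0.0111). Hat1, a histone acetyltransferase gene, fell by 0.29 (limma adjusted p = 0.0187), and Cited2, whose product binds CBP and p300, fell by 0.32 (limma adjusted p = 0.0253), with its other probe set at -0.08 (limma adjusted p = 0.437). Cited1, named after its value was seen, rose by 0.24 at a level under the array median (limma adjusted p = 0.0401). The Hat1 call was lost without transgenic replicate 1 or 3 or wild-type replicate 3 (limma adjusted p from 0.0552 to 0.0764). That of Cited2 was lost without transgenic replicate 2 or 3 or wild-type replicate 2 or 3 (0.0807 to 0.0855), and that of Cited1 when any 1 array but wild-type replicate 2 was left out (0.0918 to 0.115).

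Among corepressors and deacetylases that PLZF can recruit or resemble, 1 of 9 measured genes rose and 1 fell, with a median of -0.01. These counts stand beside 5.83% of all genes higher and 7.96% lower. Bcl6, like Zbtb16 a gene of the BTB zinc finger repressor family, had the largest difference among the 62 listed genes. It gave 7.79, 7.67 and 7.57 in transgenic arrays, against 6.82, 6.91 and 6.78 in wild-type arrays. The groups were far apart, and Bcl6 rose by 0.84 (SE 0.07, limma adjusted p = 0.000317), or 1.79-fold. Its other probe set rose by 0.41 (limma adjusted p = 0.00742). Hdac2, a histone deacetylase gene, gave 5.89, 5.63 and 5.95 in transgenic arrays, against 6.22, 6.32 and 6.30 in wild-type arrays. Every transgenic array was lower, with a difference of -0.46 (SE 0.09, limma adjusted p = 0.0146). This call was lost without wild-type replicate 2 (limma adjusted p = 0.0597) or 3 (limma adjusted p = 0.0553).

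The next lists are those around YY1 and BCCIP, to be read against the 13.8% of all genes called. In the Polycomb and INO80 list around YY1, 0 of 10 measured genes passed by limma, and the smallest p was that of Ezh2, the Polycomb methyltransferase gene, at 0.25 (unadjusted p = 0.00612, limma adjusted p = 0.0506). In the recombination repair and p21 list around BCCIP, 1 of 7 rose, 0 fell and the median was 0.11. The risen gene, Ccne1, encodes cyclin E1 and gave 5.80, 5.87 and 5.91 in transgenic arrays, against 5.50, 5.39 and 5.55 in wild-type arrays. The groups did not overlap, with a difference of 0.37 (SE 0.07, limma adjusted p = 0.00905). Cdkn1a, the p21 gene, differed by 0.18 (limma adjusted p = 0.179).

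Of 10 measured NF-kB subunits and inhibitors, 1 rose and 1 fell, against 5.83% and 7.96% of all genes, with a median of 0.10. Bcl3, an atypical IkB protein gene, rose by 0.31 (SE 0.06, limma adjusted p = 0.0124), and Rel, the c-Rel subunit gene, fell by 0.30 (SE 0.07, limma adjusted p = 0.0260). The Bcl3 call was lost without transgenic replicate 1 (limma adjusted p = 0.0508), and that of Rel without transgenic replicate 2 or 3 or wild-type replicate 2 or 3 (limma adjusted p from 0.0804 to 0.0893).

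**Figure D4:**
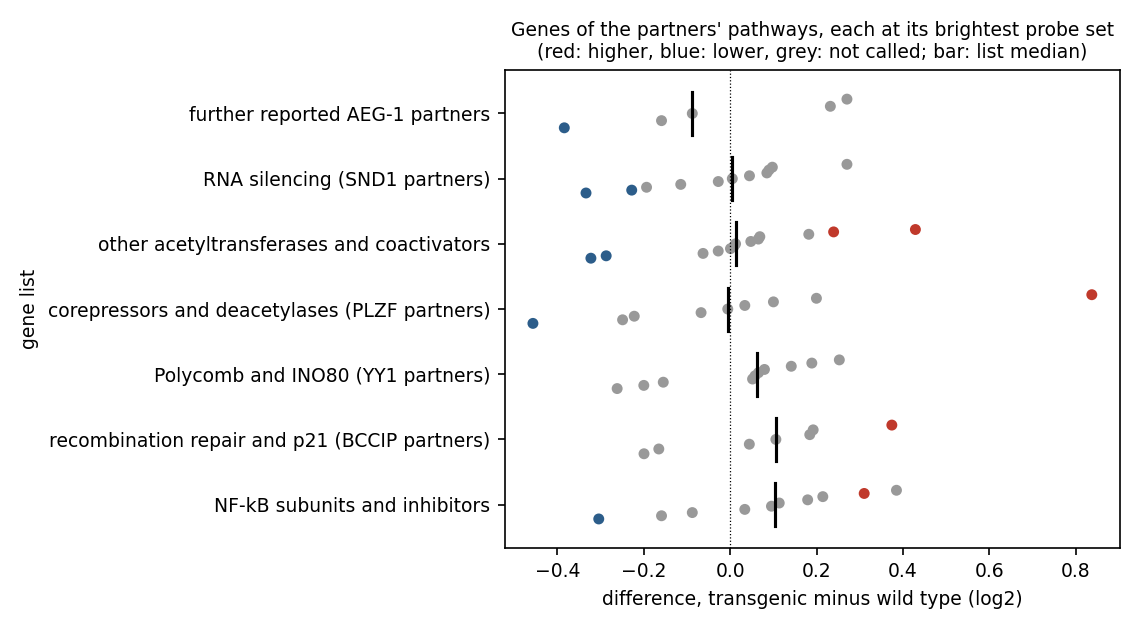
Difference of each measured gene of the 7 lists at its brightest probe set, transgenic minus wild type (log2). Red marks genes called higher, blue genes called lower, grey genes not called, and the black bar is the list median. Bcl6 lies farthest from 0, at 0.84, and no point of the Polycomb and INO80 list is coloured.

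Of the 14 nearest measured neighbours of the 7 members in the reference gene order, 1 rose and 1 fell, a share of 14.3% against 13.8% of all genes. Rangap1, beside Ep300, averaged 8.45 ± 0.08 in transgenic and 8.19 ± 0.06 in wild-type cells (SD, n = 3 each), a difference of 0.26 (limma adjusted p = 0.0400), a call lost without transgenic replicate 1 or 2 or wild-type replicate 2 or 3 (limma adjusted p from 0.109 to 0.124). Adcy9, an adenylate cyclase gene beside Crebbp, averaged 7.34 ± 0.06 in transgenic and 7.71 ± 0.08 in wild-type cells (SD, n = 3 each), a difference of -0.36 (limma adjusted p = 0.0101). The neighbours of Yy1, Degs2 and Slc25a29, did not pass.

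The arrays had medians from 5.61 to 5.64, but RMA makes these nearly equal, so they cannot show whether an array stood apart. Correlations between arrays ran from 0.997 to 0.998 within a genotype and from 0.993 to 0.994 between genotypes. The labelled cell type was checked on hepatocyte markers, of which 7 of 8 were measured, 1 rose (Ahsg) and 0 lay under the array median, with Alb at 14.70 ± 0.02 in transgenic and 14.69 ± 0.00310 in wild-type cells (SD, n = 3 each). Of 30 measured markers of other liver cells, 5 were higher in transgenic cells and 0 were lower, so 16.7% were called, against 13.8% of all genes (5.83% higher). The log2 of the summed signal of 7 endothelial markers ran from 9.38 to 9.46 in transgenic and from 9.05 to 9.20 in wild-type arrays. Here 2 rose (Kdr and Clec4g), 0 fell and 2 lay under the array median. The other endothelial markers ran from -0.11 (Cdh5) to 0.25 (Stab2) without passing, and the list median was 0.22. For 4 of 5 cholangiocyte markers the summed signal ran from 8.32 to 8.40 in transgenic and from 8.10 to 8.17 in wild-type arrays. Here 1 rose (Epcam, by 1.52) and 2 lay under the median. Krt19 differed by 0.36 (limma adjusted p = 0.130), Krt7 by -0.03 and Sox9 by -0.02, and none of these passed. For 8 macrophage markers the log2 of the summed signal ran from 10.12 to 10.20 in transgenic and from 9.99 to 10.13 in wild-type arrays. Here 1 rose (Marco) and 0 lay under the median. The other macrophage markers ran from -0.10 (Csf1r) to 0.22 (Cd68) without passing, with Clec4f at 0.06 and Cd5l at 0.02. The list median was 0.14. For 4 genes listed as lymphocyte markers the ranges of the summed signal were 7.25 to 7.36 in transgenic and 7.17 to 7.23 in wild-type arrays. Here 1 rose (Ptprc, by 0.61) and 3 lay under the median. Ptprc is a gene of leukocytes in general, macrophages included, and not of lymphocytes alone. Cd79a, Nkg7 and Cd3e differed by -0.14, -0.08 and -0.01 without passing, and the median difference of the lymphocyte list was -0.05. Of 7 stellate cell markers 0 passed by limma, with ranges of 8.30 to 8.32 in transgenic and 8.15 to 8.22 in wild-type arrays and 5 under the median. The Ahsg call was lost when any 1 of the 6 arrays was left out (limma adjusted p from 0.0788 to 0.136), that of Kdr when any 1 but wild-type replicate 1 was (0.0519 to 0.0839), and that of Marco without transgenic replicate 1 or 2 or wild-type replicate 2 or 3 (0.0586 to 0.0714). Those of Clec4g, Epcam and Ptprc held with each array left out. The part of other cells in the Mtdh, Yy1 and listed gene differences was not tested.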

How the data were processed

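Total RNA of 6 hepatocyte samples was hybridised to Affymetrix mouse arrays. The authors deposited log2 signals for each probe set. According to the submitters' processing notes, these came from RMA, run in Affymetrix Expression Console. RMA corrects for background, gives all arrays the same distribution and combines the probes of a set, so a change shared by most genes is removed. No source used here gives the software version. Arrays have no read depth, and their number limits the precision.

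Of 22690 probe sets, 64 controls were left out. Of the rest, 20380 carried 1 symbol, 691 several and 1555 none, and 20351 were matched by gene identifier to the GRCm38.p6 gene table. Every probe set was tested across all genes with limma 3.58.1 (lmFit, eBayes, two-sided) in R 4.3.3 with data.table (version 1.17.8), transgenic minus wild type, with Benjamini-Hochberg adjustment and a threshold of 0.05. The fit was tested on simulated data with known answers. Intervals are 95% and use the moderated standard error.

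The members, lists and tests were chosen with earlier results of these data known. Named beside the members are up to 3 called genes per list (or the smallest p), the 5 profiles nearest to Mtdh and the neighbours of members. A gene outside the members is shown at its brightest probe set. Alternatives covered the probe sets tested, scaling, variance prior, array weights, thresholds, the replicate number and leaving out each array.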

Additional observations from a re-analysis of the deposited data

How the results depend on the processing

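The Mtdh 1455129_at difference kept its direction and call under all 19 alternatives, from 1.84 to 2.04. The Mtdh mean over probe sets ran from 0.25 to 0.31 with an array left out and missed the threshold without transgenic replicate 1 (0.26, limma adjusted p = 0.0506). With the median of probe sets it was -0.0854. The Yy1 1422570_at call was lost under 9 of 18 alternatives, 5 of them with an array left out, while its difference ran from -0.32 to -0.25. Its losses at an adjusted p under 0.01 and at 1.5-fold or more followed from the main values, since only the threshold changes there. Called member probe sets numbered 1 with the brightest probe set per gene, without moderation, at an adjusted p under 0.01, at 1.5-fold or more and with the replicate block, 3 with single-symbol probe sets, without the dimmest 25%, after quantile normalization, with a variance trend and with array weights, and 1 to 2 with an array left out.

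All called probe sets numbered 1566 without moderation (712 higher, 854 lower), 1208 at the stricter p (544 and 664) and 589 at 1.5-fold or more (287 and 302). With an array left out they ran from 1685 to 2350 (745 to 1041 higher, 927 to 1309 lower). The lowest counts were 1701 without transgenic replicate 1, 1715 without transgenic replicate 3, 1685 without wild-type replicate 2 and 1706 without wild-type replicate 3. Called listed genes, an alternative added after seeing the data, numbered 6 without moderation, 7 with the replicate block, 3 at the stricter p, 1 at 1.5-fold or more, 16 with the brightest probe set per gene, without the dimmest 25% and with array weights, 17 with a variance trend, and 5 to 11 with an array left out. Of 25 named genes outside the members, 17 lost their call under at least 1 alternative, 8 did not, and 0 changed sign. The 8 were Bcl6, Epcam, Ptprc and the genes with profiles nearest to Mtdh, namely Tmsb10, Cxcl9, Ccl3, Serpina12 and Slc15a2. The nearest profiles were picked for a large genotype difference like that of Mtdh, so their kept calls and signs are no evidence of stability. The 25 were named for a call or a near profile, which favours unchanged signs. Losses at the stricter p and at 1.5-fold or more were fixed by the main fit, since these settings change only the threshold. Rxra and Ccne1 lost their calls at 1.5-fold or more only.

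Among single probe sets, signs turned for differences near 0. Mtdh 1434882_at gave -0.00505 with median centring, -0.0118 with array weights and -0.0531 to 0.0434 with an array left out. After quantile normalization Snd1 1416038_at gave 0.00718 and Bccip 0.00839. With an array left out, the ranges crossed 0 for Snd1 1416038_at (-0.0708 to 0.0224), 1437036_at (-0.146 to 0.0254) and 1437037_x_at (-0.107 to 0.0235), for Zbtb16 1419874_x_at (-0.164 to 0.00633), 1427638_at (-0.0284 to 0.161) and their mean (-0.0490 to 0.0461), and for Yy1 1457834_at (-0.00405 to 0.0903). The cause of these changes was not tested.

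The shared replicate numbers do not mark a known pairing. Deviations from the group means correlated by -0.02, -0.03 and 0.10 for the numbers 1, 2 and 3, and by -0.08 to 0.09 for unlike numbers. Deviations within a genotype sum to 0, so these values cannot settle whether the numbers were paired. With the replicate block the Yy1 1422570_at difference was -0.28 (limma adjusted p = 0.0684). Signal under the array median, as for Zbtb16 and Crebbp, limits what these probe sets can show.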
